A study of Homo sapiens with 8 samples.

Results

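Among 7 genes of tight junctions and epithelial adhesion, CLDN1 stood apart in SK-BR-3 clones of the first experimental set. Its log2 ratio to wild-type cells was 1.53 in the clone lacking mir-200c, 2.04 in the clone lacking both mir-141 and mir-200c, and −0.01 in the clone lacking mir-141 alone. OCLN had the same order at a smaller size (0.38, 0.54 and 0.04), and CLDN7, TJP3, EPCAM, JUP and MAL2 lay between −0.34 and 0.24 in all 3 clones. The 7 genes were chosen by name, as the entries of the deposited table with these symbols, and make up 7 of its 9245 entries. Earlier results of these data were known at the choice, so the counts and ranks of these genes are descriptions and not tests. No gene of the table passed the test over both sets, and the values of the second set cannot be tied to gene names with confidence.

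SK-BR-3, an established line from a human breast carcinoma, is epithelial in type and carries extra copies of ERBB2. The study compared mRNA of 8 libraries in 4 groups: wild-type cells, mir-141 knockout cells, mir-200c knockout cells and double knockout cells. The knockouts had been made with TALENs, designed nucleases that cut a chosen DNA site. Both experimental sets held 1 library per group, and every knockout library came from 1 clone, numbers 23, 11 and 55 in set 1 and 10, 29 and 61 in set 2 in the order mir-141, mir-200c and double knockout. A trait of a single clone and the effect of its genotype therefore cannot be told apart within a set. The deposited values are log2 ratios, each of 1 clone against the wild-type library sequenced in the same set. They hold no expression levels, so neither the depth of a library nor the order of levels between genes is known, and the labelled cell type could not be checked against the levels of its markers.

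Tight junctions seal the space between neighbouring epithelial cells near the apical surface. Claudins and occludin form their strands in the membrane, and scaffold proteins of the ZO family tie the strands to actin. Adherens junctions and desmosomes below them hold cells together through cadherins and catenins. The mir-200 family, to which mir-141 and mir-200c belong, is known for keeping epithelial cells epithelial. It represses ZEB1 and ZEB2, transcription factors that switch off junction genes. ZEB1 and ZEB2 are not among the genes read here, and the cadherin gene CDH1 has no entry in the deposited values.

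The sequences of the 2 deleted microRNAs are shown because their seeds define which sites were searched in the junction genes. Capitals mark the seed, bases 2 to 8 from the 5′ end (RefSeq, GRCh38.p14).
hsa-miR-141-3p: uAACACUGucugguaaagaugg
hsa-miR-200c-3p: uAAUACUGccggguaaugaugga
Their genes lie side by side on chromosome 12, with the mature strands at chr12:6964155-6964176 and chr12:6963742-6963764 on the plus strand. The seeds differ at 1 of 7 bases, so each has its own target sites.

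Sites of 7 or 8 bases complementary to either seed were searched in the annotated 3′ UTR of each gene (GENCODE release 29, GRCh38). OCLN held 2 sites for miR-200c-3p and 0 for miR-141-3p. Its 3′ UTR is 4433 bases long, beside a median of 1004 over all entries with a 3′ UTR. Both are shown with the matching bases in capitals, since OCLN is the only one of the 7 genes with a site for miR-200c-3p alone.
OCLN at chr5:69553810-69553816, plus strand: taacatcatCAGTATTgaagcattt
OCLN at chr5:69555822-69555828, plus strand: caagtttgtCAGTATTttcacaaaa
MAL2 held 1 site for each microRNA. CLDN1, CLDN7, TJP3, EPCAM and JUP held 0 for either, in 3′ UTRs of 2576, 583, 128, 421 and 1140 bases. Among 9219 entries with a 3′ UTR, 21.5% held a site for miR-200c-3p, 22.6% one for miR-141-3p and 34.7% one for either. CLDN1, the gene with the highest ratios, thus had no such site in this 3′ UTR. A match is a description of the sequence and does not show that the microRNA acts there.

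The table lists both sets in the same rows, and whether a row stands for 1 gene across the sets was checked after their values had been seen. Within set 1 the mean rank correlation of the clones across genes was 0.538, and within set 2 it was 0.588. Each set shares 1 wild type, which is built into these values. Between the sets the mean over the 3 genotypes was 0.0121 when rows were compared as listed. It was highest, at 0.0436, when set 2 was read 4 rows further down, and no offset of more than 15 rows in either direction gave a size above 0.0206. In blocks of 400 rows, the highest of 121 offsets lay away from 0 in 23 of 23 blocks, between −13 and 9 rows, and it drifted along the file. For pairs of clones of the same set it was at 0 in 23 of 23 blocks. In the block that holds CLDN1 and OCLN it was at 4 rows, with a correlation of 0.168 against 0.0142 as listed. These are correlations across genes, which are not independent replicates. A value of set 2 printed below is the one listed beside the name and may belong to another gene. Set 1 was the primary set from the start and is described first, and no value was moved to another row.

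**Figure D1:**
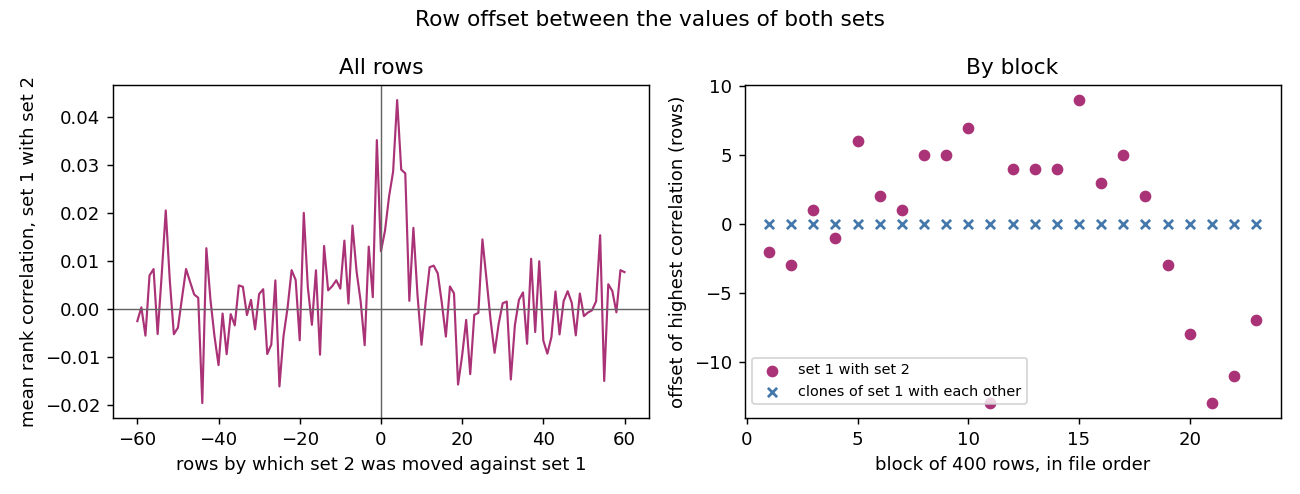
Mean rank correlation across genes between set 1 and set 2 of the same genotype, against the number of rows by which set 2 was moved (left), and the offset with the highest correlation in each of 23 blocks of 400 rows (right). The offset between sets runs from −13 to 9 and is at 0 in no block, while clones of set 1 compared with each other (crosses) peak at 0 in all 23.

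CLDN1 encodes claudin-1, a barrier-forming strand protein (NM_021101, chr3:190305701-190322475, minus strand, 4 exons). In set 1 its log2 ratios were −0.01 without mir-141, 1.53 without mir-200c and 2.04 without both. On the linear scale these are 0.994, 2.88 and 4.12 times the wild type. The mir-200c and double knockout were high and the mir-141 knockout was level with the wild type. CLDN1 ranked 41 from the highest of 9245 entries without mir-200c and 14 without both microRNAs.

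The 4 libraries of set 1 give 2 values for loss of mir-200c, from different libraries. With mir-141 present (mir-200c knockout against wild type) the difference for CLDN1 was 1.53, and with mir-141 absent (double against mir-141 knockout) it was 2.05, rank 3 of all entries. Loss of mir-141 gave −0.01 with mir-200c present and 0.51 with mir-200c absent. In an additive model of both losses fitted with limma to the 4 libraries of set 1, loss of mir-200c gave 1.79 ± 0.18 for CLDN1 (SE, 1 residual degree of freedom). Its unadjusted p was 0.000234, and its Benjamini-Hochberg adjusted p over all entries was 0.326. This fit was added after the data were seen. The residual for a gene is its departure from additive losses, so the SE and p hold no spread between clones. The fit called 0 entries (0% of 9245). On simulated data the same fit called 62 of 100 genes changed by a log2 of 2 and 0 of 100 changed by 1. The simulated spread came from the knockout ratios of both sets, so it includes differences between genotypes and the values listed in set 2. Whether a change of the size seen in OCLN could be called in set 1 is therefore not known.

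**Figure D2:**
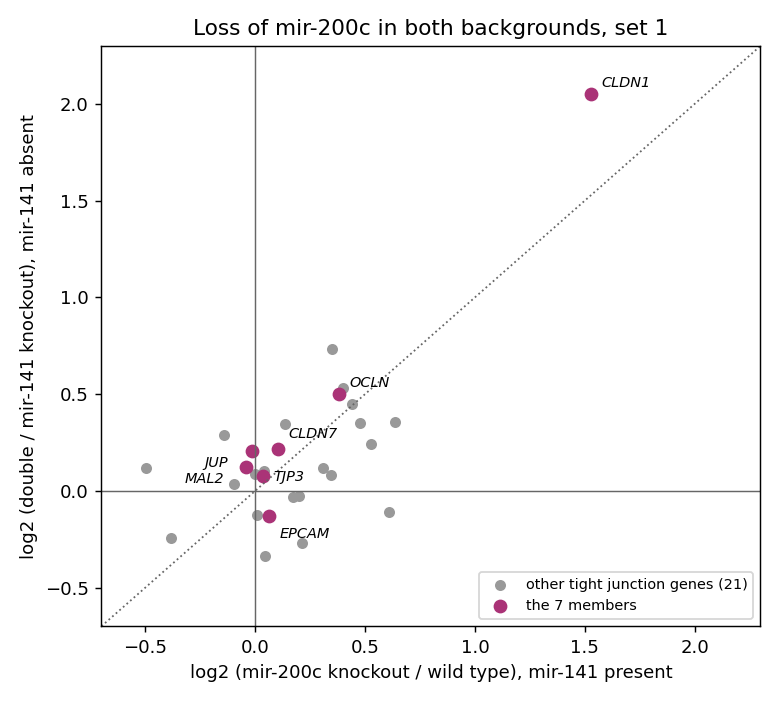
Log2 difference on loss of mir-200c in set 1 with mir-141 present (horizontal) and absent (vertical), 1 point per gene, for the 7 genes (purple) and 21 other tight junction genes (grey). The axes share no library and the dotted line marks equal values. CLDN1 lies alone at 1.53 and 2.05, OCLN at 0.38 and 0.50, and the other 5 of the 7 lie between −0.13 and 0.22 on both axes.

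In set 2 the values listed beside CLDN1 were −0.20, −0.21 and −0.77 in the clones without mir-141, without mir-200c and without both. All 3 lie below 0, opposite to both set 1 clones that lack mir-200c. Over both sets, loss of mir-200c gave 0.70 ± 0.42 for CLDN1 (SE, limma additive model, adjusted p = 0.631). It was 0.41, 0.44 and 0.28 without the wild type, mir-141 knockout or double knockout of set 1, and 1.10 without the double knockout of set 2. The mir-200c knockout against wild type gave 0.66 ± 0.64 (adjusted p = 0.852) and the double knockout 0.64 ± 0.64 (adjusted p = 0.820). If the row of set 2 holds another gene, these means combine different genes.

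CLDN7 encodes a claudin found along the lateral membrane, where it is known to bind EPCAM (NM_001185023, chr17:7259903-7263983, minus strand, 3 exons). In set 1 its log2 ratios were −0.01, 0.10 and 0.20 in the clones without mir-141, without mir-200c and without both. The listed values of set 2 were 0.02, 0.06 and 0.17. As listed, both sets had the double knockout highest and the mir-141 knockout lowest, with no clone beyond 0.21. The row of set 2 may hold another gene, and a mean over both sets would then combine different genes. Loss of mir-200c gave 0.16 ± 0.13 in set 1 alone and 0.13 ± 0.09 over both sets (limma, adjusted p = 0.611 and 0.649). CLDN7 shares its minus strand with the annotated AC003688.1 and overlaps the end of ELP5 on the other strand, and the sources used here do not give whether reads were counted by strand.

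OCLN encodes occludin, a strand protein of the MARVEL family (NM_002538, chr5:69492292-69558104, plus strand, 9 exons). Its ratios in set 1 were 0.04, 0.38 and 0.54 in the clones without mir-141, without mir-200c and without both, or 1.03, 1.30 and 1.45 times the wild type. Both clones without mir-200c were above the clone without mir-141. Loss of mir-200c gave 0.38 with mir-141 present and 0.50 with it absent. The values listed in set 2 were −0.01, 0.24 and 0.44, in the same order, but that row may hold another gene. A mean over both sets would then combine different genes. Over both sets loss of mir-200c gave 0.39 ± 0.09 (limma, unadjusted p = 0.00298, adjusted p = 0.541). In set 1 alone it was 0.44 ± 0.13 (adjusted p = 0.401). OCLN has an annotated unprocessed pseudogene copy, OCLNP1 (chr5:71074225-71093193), and an antisense gene at its start, so its values are uncertain where reads could be split between them.

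TJP3 encodes ZO-3, a scaffold of the tight junction plaque (NM_001267560, chr19:3708109-3750813, plus strand, 21 exons). Its ratios in set 1 were −0.34, 0.04 and −0.26 in the clones without mir-141, without mir-200c and without both. The clones without mir-141 were both lower than the mir-200c knockout. Loss of mir-141 gave −0.32 ± 0.13 in set 1 alone (limma, unadjusted p = 0.0561, adjusted p = 0.792). The values listed in set 2 were 0.07, 0.47 and 0.38, all above 0. That row may hold another gene, and the values over both sets would then combine different genes. Over both sets loss of mir-141 gave −0.16 ± 0.12 (adjusted p = 0.901) and loss of mir-200c 0.22 ± 0.12 (adjusted p = 0.606), while loss of mir-200c gave 0.06 ± 0.13 for TJP3 in set 1 alone (adjusted p = 0.862). Leaving out a wild type shifted the values over both sets for loss of mir-141 and of mir-200c. Without that of set 1 they were −0.08 and 0.31, and without that of set 2 they were −0.26 and 0.12.

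EPCAM encodes an adhesion and signalling protein of simple epithelia (NM_002354, chr2:47345158-47387601, plus strand, 9 exons). Its ratios were 0.08, 0.06 and −0.05 in the set 1 clones without mir-141, without mir-200c and without both, and 0.06, −0.03 and 0.11 were listed in set 2. No clone was far from the wild type, and loss of mir-200c in set 1 alone gave −0.04 ± 0.13 (limma, adjusted p = 0.921). With mir-141 absent the difference on loss of mir-200c was −0.13, and with mir-141 present it was 0.06. The row of set 2 may hold another gene, and values over both sets would then combine different genes. Over both sets, loss of mir-141 gave 0.04 ± 0.09 and loss of mir-200c −0.01 ± 0.09 (limma, adjusted p = 0.960 and 0.972).

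JUP encodes plakoglobin, a catenin of both adherens junctions and desmosomes (NM_002230, chr17:41754604-41786931, minus strand, 14 exons). Its ratios were 0.04, −0.02 and 0.24 in the set 1 clones without mir-141, without mir-200c and without both. Only the double knockout was over 0.05 in size. The listed values of set 2 were 0.03, −0.13 and −0.03. They may belong to another gene, and a value over both sets would then combine different genes. Loss of mir-200c gave 0.10 ± 0.14 in set 1 alone and 0.00 ± 0.10 over both sets (limma, adjusted p = 0.772 and 0.998).

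MAL2 encodes a raft protein of apical membrane traffic (NM_052886, chr8:119165034-119245673, plus strand, 4 exons). Its ratios were −0.10, −0.04 and 0.02 in the set 1 clones without mir-141, without mir-200c and without both, and 0.23, 0.15 and 0.30 were listed in set 2. MAL2 is the only one of the 7 genes with a site for each microRNA. If its row of set 2 holds another gene, values over both sets combine different genes. Loss of mir-141 gave 0.09 ± 0.10 and loss of mir-200c 0.08 ± 0.10 over both sets (limma, adjusted p = 0.918 and 0.819), beside −0.02 ± 0.13 and 0.04 ± 0.13 in set 1 alone (adjusted p = 0.993 and 0.907). The antisense lincRNA MAL2-AS1 overlaps its 3′ part.

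**Figure D3:**
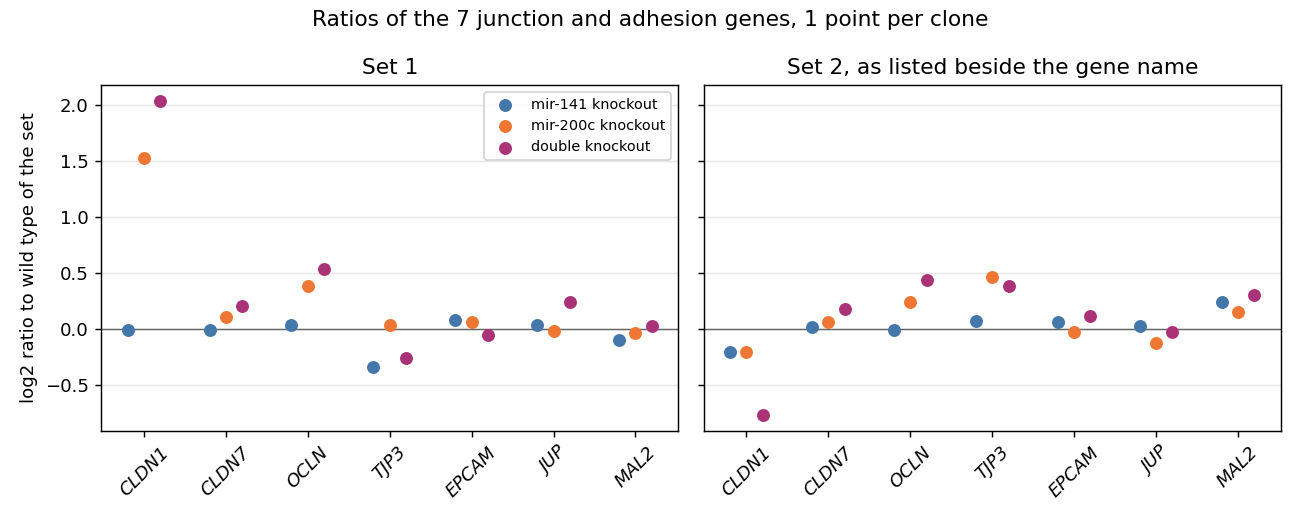
Log2 ratio of clone to wild type within a set for each of the 7 genes, 1 point per clone, in set 1 (left) and as listed in set 2 (right). In set 1 CLDN1 reaches 1.53 and 2.04 in the clones without mir-200c and all other points lie between −0.34 and 0.54. In set 2 the CLDN1 points lie between −0.77 and −0.20.

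Counted against a log2 ratio of 0.5, the 7 genes had 0 above it in the mir-141 knockout of set 1 (3.55% of all entries), 1 in the mir-200c knockout (CLDN1, 9.05% of all entries) and 2 in the double knockout (CLDN1 and OCLN, 7.36% of all entries). Below −0.5 there were 0 in each clone, where 2.63%, 7.92% and 5.06% of all entries lay. The median of the 7 genes was −0.01, 0.06 and 0.20 in the clones without mir-141, without mir-200c and without both, beside −0.01, −0.02 and −0.03 over all entries. On loss of mir-200c with mir-141 absent, CLDN1 was the 1 gene above 0.5 (4.2% of all entries) and 0 were below −0.5 (2.23% of all entries). There 6 of 7 were above 0, and 46.8% of all entries were. On loss of mir-141 with mir-200c absent, CLDN1 was again the 1 gene above 0.5 (5.4% of all entries) and 0 were below −0.5 (5.43% of all entries). The count past 0.5 rested on the chosen bound. At 0.3, 2 genes were above it in the mir-200c knockout (18.9% of all entries), and 1 gene, TJP3, was below −0.3 in the mir-141 knockout (8.72% of all entries). At 1, 1 gene was above it in the double knockout (CLDN1, 1.53% of all entries).

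Over both sets limma called 0 of 9245 entries (0%) in each comparison. At an unadjusted p under 0.05 there were 248, 499 and 581 entries in the clones without mir-141, without mir-200c and without both. For loss of mir-141 there were 476, for loss of mir-200c 821 and for the interaction of both losses 157. If no gene changed, a share of 0.05 of the 9245 entries would be expected under this bound. These counts alone therefore do not show changed genes. Within the 7 genes the interaction had adjusted p of 1.00 throughout, with 0.08 ± 0.90 for CLDN1 and 0.17 ± 0.20 for OCLN. The depth behind these ratios is unknown, and with 1 library per group and set the spread over sets may include a change of gene in the row. A missing call here does not show that a gene kept its level.

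The wider tight junction list held 38 further genes, of which 21 were measured. Their median in set 1 was 0.03, 0.20 and 0.14 in the clones without mir-141, without mir-200c and without both, with 11, 16 and 16 above 0, beside 48.1%, 48.0% and 46.3% of all entries. Of the 21, 3, 3 and 5 were above 0.5 and 0 were below −0.5. Over all entries 3.55%, 9.05% and 7.36% were above 0.5 and 2.63%, 7.92% and 5.06% below −0.5. CLDN23, a further claudin, had 0.53, 0.53 and 0.77. CXADR, a junctional adhesion protein that serves as a virus receptor, had 0.31, 0.48 and 0.66. CGNL1, the plaque protein paracingulin, had −0.07, 0.35 and 0.66. No gene of the wider list reached the ratios of CLDN1, since the highest was 0.64 without mir-200c and 0.77 without both.

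The apical polarity and membrane traffic list (23 of 29 measured) had medians of 0.00, 0.16 and 0.02 in the clones without mir-141, without mir-200c and without both, with 1, 3 and 1 genes above 0.5 and 1, 0 and 1 below −0.5. LIN7B, a scaffold of the Crumbs complex, had −1.08, −0.39 and −1.31, and MYO5B, a motor of recycling endosomes, had 0.72, 0.30 and 1.22. EZR, which links the apical membrane to actin, had −0.12, 0.80 and −0.05. For adherens junctions (13 of 16 measured) the medians were −0.05, 0.17 and 0.03. There 0, 1 and 0 genes were above 0.5 and 1, 0 and 0 below −0.5. The shares of all entries were 3.55%, 9.05% and 7.36% above 0.5 and 2.63%, 7.92% and 5.06% below −0.5. The 13 include CTNNBL1 (0.09, 0.33 and 0.15), which is named like a catenin and not known as a junction protein. The medians were not taken without it. The nectin gene PVRL4 had −0.08, 0.75 and 0.38, the afadin gene MLLT4 had −0.52, 0.17 and −0.24, and AJUBA had 0.13, 0.47 and 0.27.

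The desmosome list (10 of 14 measured) had medians of −0.04, 0.03 and 0.00, with 0, 2 and 0 above 0.5 and 2, 1 and 1 below −0.5. Its plaque protein PKP1 was low in every clone of set 1 (−0.79, −1.53 and −1.30). PERP, a desmosomal membrane protein, had 0.17, 0.83 and 0.49, and PKP2 had −0.75, −0.06 and −0.11. Partners of EPCAM and other epithelial surface genes (14 of 19 measured) had medians of 0.08, 0.00 and 0.08, with 2, 1 and 2 above 0.5 and 0 below −0.5. CEACAM6 had 1.39, 1.52 and 1.05, and TSPAN1 had 0.53, −0.27 and −0.47. Among all entries 3.55%, 9.05% and 7.36% lay above 0.5 and 2.63%, 7.92% and 5.06% below −0.5.

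Epithelial regulators (17 of 22 measured) had medians of −0.03, 0.04 and −0.01, with 0, 1 and 2 above 0.5 and 2, 1 and 1 below −0.5. SNAI1, a repressor of junction genes, had −0.18, −0.85 and −0.15, KLF5 had −0.71, −0.47 and −0.73, and OVOL2 had 0.50, 0.48 and 0.61. Over all entries 3.55%, 9.05% and 7.36% lay above 0.5 and 2.63%, 7.92% and 5.06% below −0.5. Of 9 gap junction genes 1 was measured, GJA5, with −0.11, −0.95 and 0.46.

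Markers of other cell states were read in the same clones. Mesenchymal markers (10 of 22 measured) had medians of 0.20, 1.26 and 0.88 in the clones without mir-141, without mir-200c and without both, with 3, 9 and 8 above 0.5 and 0 below −0.5. Their medians were higher in the clones in which CLDN1 and OCLN were high, but not every marker was. MYL9 had 0.79, 3.20 and 3.01 and CALD1 had 0.37, 1.32 and 0.95. TAGLN, at −0.22, 2.08 and −0.41, and COL5A1, at −0.29, 1.29 and −0.09, were below the wild type in the double knockout, and S100A4, at 0.04, −0.31 and 0.67, was below it in the mir-200c knockout. COL5A1 and S100A4 were named after their values were seen. Basal breast markers (7 of 11 measured) had medians of 0.52, 0.68 and 0.44, with 4, 4 and 3 above 0.5, and KRT17 had 0.94, 2.20 and 2.07. Luminal breast markers (12 of 12 measured) had medians of −0.03, −0.04 and −0.16, with 1, 0 and 0 above 0.5 and 0, 2 and 2 below −0.5. Of the fibroblast markers 2 of 8 were measured, with medians of 0.40, 0.14 and 0.56 and ratios between −0.41 and 1.28. Of the blood cell markers 4 of 8 were measured, with medians of −0.05, 0.17 and −0.02 and ratios between −0.54 and 1.05. The shares of all entries were 3.55%, 9.05% and 7.36% above 0.5 and 2.63%, 7.92% and 5.06% below −0.5. Ratios do not show whether a marker was near 0 in every library. The part of these markers in the ratios of CLDN1 and OCLN was not tested.

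**Figure D4:**
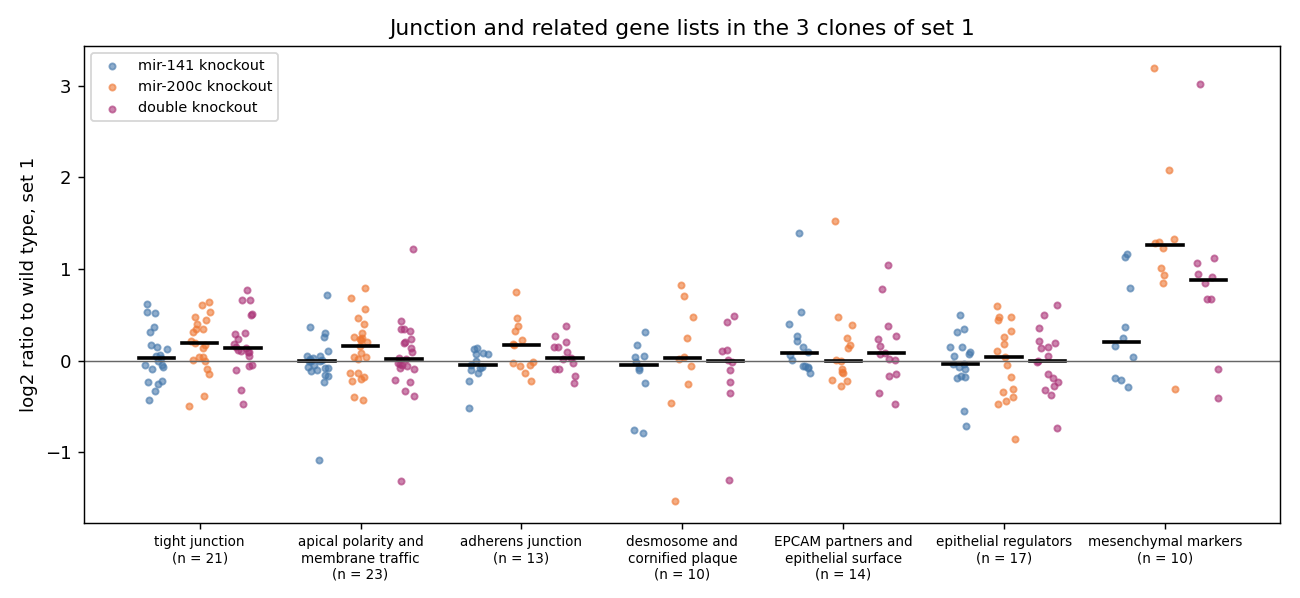
Log2 ratio to the wild type in the 3 clones of set 1 for 7 gene lists, 1 point per gene, with black bars at the medians. The tight junction list has medians of 0.03, 0.20 and 0.14, and the mesenchymal markers have 0.20, 1.26 and 0.88.

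The genes nearest to CLDN1 on chromosome 3 did not share its ratios. Its 6 closest measured neighbours, 3 on each side, lay between −0.19 and 0.54 without mir-200c and between −0.17 and 0.61 without both. The nearest on either side, LPP and IL1RAP, had 0.10 and 0.06 without mir-200c and −0.03 and 0.03 without both. Around OCLN the 6 neighbours had medians of −0.20, −0.34 and −0.35 in the clones without mir-141, without mir-200c and without both, and OCLN stood above that median in each clone. In the mir-141 knockout 1 neighbour, BDP1, was higher than OCLN (0.16 against 0.04). Its neighbour MARVELD2, which encodes the related junction protein tricellulin, had −0.43, −0.50 and −0.32. The 6 neighbours of MAL2 had medians of 0.28, 0.46 and 0.60, above MAL2 itself.

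By Euclidean distance over the 3 ratios of set 1, the entries most like CLDN1 were ZSWIM4 (distance 0.635), ANXA3 (0.750) and LCN2 (0.788). ZSWIM4 had 0.42, 1.86 and 1.71 in the clones without mir-141, without mir-200c and without both, ANXA3 had 0.24, 1.63 and 1.34, and LCN2 had 0.64, 1.53 and 2.48. All 3 differed from CLDN1 in having a mir-141 knockout above the wild type. Nearest to OCLN were PAK6 (0.0491), PRICKLE4 (0.0691) and CGN (0.0719), which encodes the tight junction plaque protein cingulin and had 0.06, 0.44 and 0.50. The distances rest on 3 values that share 1 wild type.

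Promoters were read for the E-box letters that ZEB proteins are known to bind, CACCTG or its reverse complement CAGGTG, on either strand. RefSeq promoters (GRCh38.p14) of 300 bases, 250 before to 50 after a start, were matched for CLDN1 (1 start) and for CLDN7, OCLN, TJP3 and JUP (2 starts each), and not for EPCAM and MAL2. At least 1 match was found in 18.6% of 10335 promoters of measured genes. CLDN1 held 0 matches. CLDN7 held 0 and 5 at its starts, OCLN 1 and 2, TJP3 0 and 1, and JUP 0 and 2. Among all promoters of measured genes 2.83% held 2 or more. The windows below show the match nearest to a start for the genes with one, in capitals, written 5′ to 3′ along the gene.
CLDN7 at chr17:7262468-7262473, minus strand: gtccgcccgCACCTGctggctcac
OCLN at chr5:69492514-69492519, plus strand: tccgagtttCAGGTGaattggtca
TJP3 at chr19:3721730-3721735, plus strand: gaagaggggCAGGTGcagccggga
JUP at chr17:41786014-41786019, minus strand: cctgccgagCAGGTGagcgcacgg
OCLN, with matches at both starts, had ratios of 0.38 without mir-200c and 0.54 without both in set 1. CLDN7, with the most matches at 1 start, had 0.10 and 0.20. TJP3 had 0.04 and −0.26, JUP had −0.02 and 0.24, and CLDN1, with 0 matches, had 1.53 and 2.04. A relation between matches and ratios was not tested. A match does not show binding, and its absence says only that these letters are not in this window.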

How the data were processed

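mRNA of 8 SK-BR-3 libraries was measured. Oligo(dT) selection, fragmentation, ligation of adaptors and reading on a HiSeq instrument are described per the labels' protocols. TopHat2 and GRCh37.p10 are named per the submitters' processing notes. The sources used here do not give the counting, scaling or filters. The authors deposited log2 ratios of each clone to the wild type sequenced with it, in 6 columns for 9245 entries (9241 distinct symbols). Columns of samples outside the series numbered 0. Depth is unknown, so no interval or floor that needs it is given.

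The design assumed values per library, so both wild types were given the value 0, with the set as a block, since the labels name it as shared by 1 library of each group and every ratio was taken within it. Linear models were fitted to all entries with limma 3.58.1 in R 4.3.3: 4 groups (3 residual degrees of freedom) or additive losses (4). Calls needed an adjusted p (Benjamini-Hochberg) under 0.05. P-values of the 4-group fit over both sets measure the spread between sets, which differ in clone. The additive fit over both sets adds the departure from additive losses. In set 1 alone and in the set by loss test, that departure is the only residual of a gene. Those SEs and p-values hold no spread between clones. For loss of mir-200c over both sets, simulated data for 9245 entries gave calls for 88 of 100 genes changed by a log2 of 1. Of those changed by 2, 99 of 100 were called, and there were 10 false calls. These counts assume that rows hold the same gene in both sets. As for set 1 alone, the simulated spread includes differences between genotypes and the values listed in set 2. How many real changes of these sizes the fit would call is therefore not known. For single clones, a log2 ratio beyond 0.5 was counted, with no test.

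Alternatives were the fit without the block, median centring, robust empirical Bayes, leaving out each library, other bounds and set 1 alone. The members and the 12 gene lists were chosen with earlier results of these data known. Named were all 7 members, up to 3 genes of a list with the largest ratios in set 1, and the 3 entries most like a member with a ratio beyond 0.5. One gene that this rule named is not reported here. Neighbours, promoters and the row offsets were added after the data were seen. Positions and 3′ UTRs came from GENCODE release 29 (GRCh38, 9009 entries matched by accession), and sequences of microRNAs and promoters from RefSeq (GRCh38.p14). No coordinates of the authors' build were used.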

Additional observations from a re-analysis of the deposited data

Results flagged for a closer look

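CLDN1 differences on loss of mir-200c were above 0 in both backgrounds of set 1 and below 0 in both backgrounds of set 2 as listed. The mean change was 1.79 in set 1 and −0.39 as listed in set 2, a difference of 2.18 ± 0.25 (SE). The difference was tested with limma as a set by loss term over all entries, and its adjusted p was 0.263. That test takes its spread from the departure from additive losses within each set, not from replicate clones. The value listed in set 2 may belong to another row, since the sets correlated best at an offset of 4 rows in this stretch of the file.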

How the results depend on the processing

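Depth is unknown, and each set holds 1 library per group, so a lost or gained call rests on few values. The count of called entries was 0 in all 6 comparisons with the set as a block, and it was also 0 with the ratios taken as independent values without the replicate block (CLDN1 0.69 and OCLN 0.36 for loss of mir-200c), after median centring, with robust empirical Bayes and, for both losses, in set 1 alone. Leaving out 1 library gave 0 to 1 called entries for the mir-141 knockout, 0 to 1 for the mir-200c knockout, 0 to 2 for the double knockout and 0 to 1 for the interaction. The called entries were WDR20 and FAM86B2 without the wild type of set 2, SLC26A11 without the mir-200c knockout of set 1 and HIST1H2BH without that of set 2. They were named after their values were seen, and no member was among them. The smallest adjusted p of any member under any alternative was 0.326 (limma). Of 476 alternative values of members, 430 kept their direction. Without the block JUP turned to −0.024 for loss of mir-200c, and after centring EPCAM turned to 0.00046. In set 1 alone, loss of mir-141 turned to 0.25 for CLDN1, −0.018 for EPCAM and −0.020 for MAL2. Leaving out 1 library also turned directions. For the mir-141 knockout the ranges were −0.90 to 0.68 for CLDN1, −0.026 to 0.030 for CLDN7, −0.037 to 0.060 for OCLN, −0.38 to 0.11 for TJP3, −0.036 to 0.097 for JUP and −0.069 to 0.20 for MAL2. For the mir-200c knockout they were −0.13 to 1.45 for CLDN1, −0.055 to 0.085 for EPCAM and −0.080 to 0.19 for MAL2. For the double knockout they were −0.45 to 1.72 for CLDN1, −0.19 to 0.31 for TJP3, −0.072 to 0.13 for EPCAM and −0.013 to 0.22 for JUP. For loss of mir-141 CLDN1 ranged from −0.48 to 0.33, and for loss of mir-200c EPCAM ranged from −0.047 to 0.031 and JUP from −0.062 to 0.044. For the interaction the ranges were −1.001 to 1.17 for CLDN1, −0.31 to 0.19 for TJP3, −0.16 to 0.043 for EPCAM and −0.093 to 0.18 for MAL2. The cause was not tested. For loss of mir-200c, CLDN1 ranged from 0.28 to 1.10, OCLN from 0.37 to 0.43 and TJP3 from 0.12 to 0.31, and for loss of mir-141 TJP3 ranged from −0.26 to −0.079. With a bound of 0.3 in place of 0.5, 2 members lay above it in the mir-200c knockout (18.9% of all entries) and 1 below it in the mir-141 knockout of set 1 (8.72%), and with a bound of 1, 1 lay above it in the double knockout (1.53%). Median centring shifted set 1 columns by at most 0.03.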
